A study of Mus musculus with 8 samples.

Results

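The amino acid transporter families are the membrane carriers that move amino acids, and some related small molecules, into and out of cells and organelles. They were taken as all genes whose platform symbol begins with Slc1a, Slc3a, Slc6a, Slc7a, Slc36a, Slc38a or Slc43a followed by a digit. Of 19505 named genes on the array, 62 met this rule: 7 Slc1a, 2 Slc3a, 19 Slc6a, 16 Slc7a, 4 Slc36a, 11 Slc38a and 3 Slc43a genes. Each had a single probe set, and all 62 matched RefSeq by Entrez ID. One of them, Slc7a6os, is named for its place on the opposite strand beside Slc7a6 and is not a transporter, which leaves 61 carriers.

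Expression was measured on Affymetrix whole-transcript arrays in type 1 conventional dendritic cells (cDC1) from the spleens of naive wild-type C57BL/6 mice. The labels give 4 arrays of cDC1 sorted as TMRM/MGhi (the TMRM/MG-high fraction, “high” below) and 4 sorted as TMRM/MGlo (the TMRM/MG-low fraction, “low” below). TMRM accumulates in mitochondria according to their membrane potential, and the labels do not spell out MG. Age, sex and the number of mice or pools behind an array are not stated in the labels, so the p-values rest on the spread between these arrays, and that spread may be technical alone. Values are deposited log2 signals, listed below in the order of replicates 1 to 4, and all differences are log2, high minus low.

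Amino acids enter cells through carriers of overlapping preference. Slc1a and Slc38a carriers use the sodium gradient to take up glutamine, alanine, serine or glutamate. Most Slc7a proteins are light chains that reach the plasma membrane only in a complex with an Slc3a heavy chain, and they exchange an amino acid inside for another outside. Carriers of the Slc36a and Slc38a families on the lysosome pass amino acids from degraded protein to the cytosol and take part in the signalling to mTORC1. In dendritic cells, which digest captured protein for antigen presentation, these routes supply amino acids for the synthesis of protein and glutathione.

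Of the 62 members, 3 were lower in TMRM/MG-high cDC1 and 0 were higher by limma with Benjamini-Hochberg adjustment over 22206 probe sets at a threshold of 0.05. The 3 were Slc38a6, Slc36a1 and Slc6a17. They make up 4.84% of the members, against 8.25% of all probe sets tested (5.28% higher and 2.96% lower). At an unadjusted p under 0.05 there were 19 members (30.6%), against 25.5% of all probe sets. These were 10 with a positive and 9 with a negative difference. The median difference of the members was -0.01, against 0.01 over all probe sets, and the median size of a difference was 0.13 in both. High and low arrays were fully separated in 8 members (12.9%), of which 3 lay above and 5 below, against 16.1% of all probe sets (9.7% above and 6.37% below). The members' differences ran from -0.69 to 0.46.

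These counts moved with the arrays and with scaling. The number of members called lower was 2 without high replicate 1 or without low replicate 3, and 1, Slc38a6, without any other single array. The number called higher was 1 without high replicate 1, 3 without low replicate 3 and 0 without any other single array. After quantile normalization over the tested probe sets 0 members were higher and 5 lower, where the calls over all probe sets were 852 higher and 858 lower, against 1173 higher and 658 lower as deposited.

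**Figure D1:**
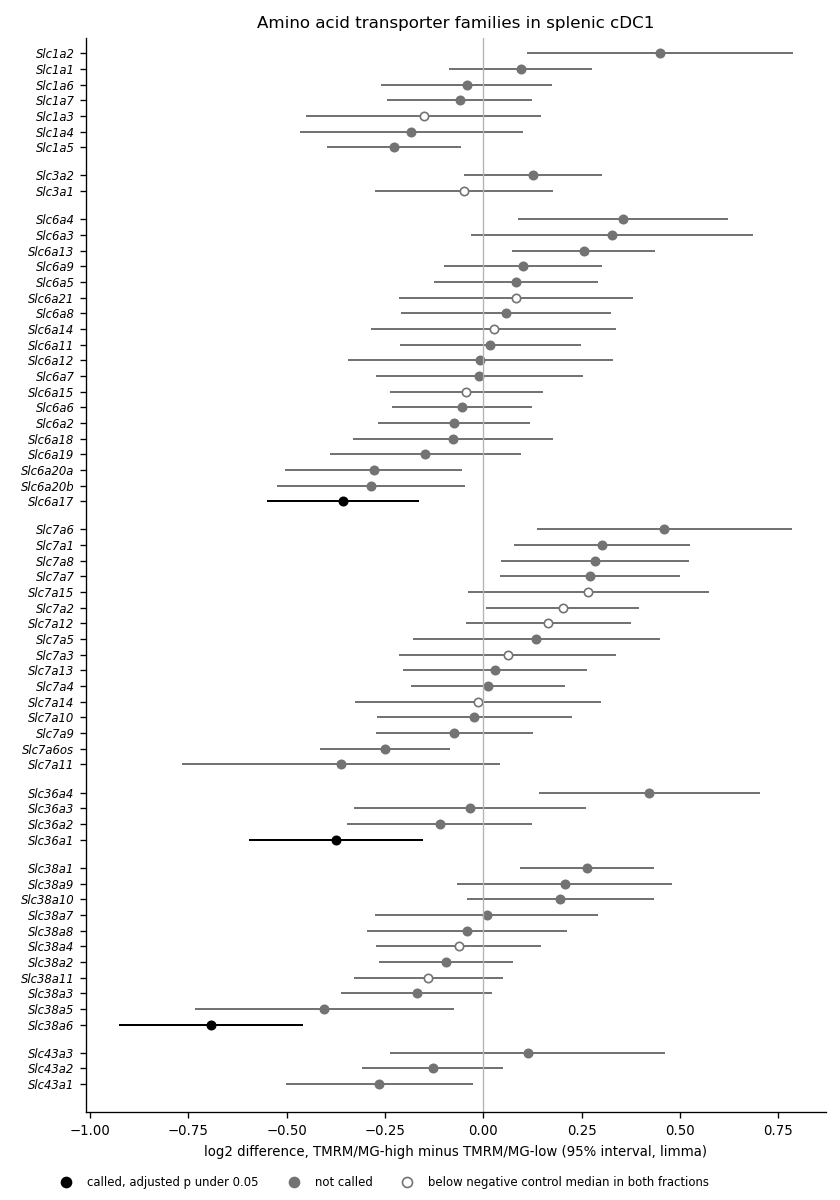
Log2 difference of each of the 62 members, TMRM/MG-high minus TMRM/MG-low, with 95% intervals from limma (n = 4 arrays each), grouped by family and ordered within it. Slc38a6, Slc36a1 and Slc6a17 (black) were called lower and the other members (grey) were not called; open circles mark the 12 members whose mean lay below the negative control median in both fractions.

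The negative (intron) control probe sets had a median of 6.86 in high arrays, against 6.75 in low arrays, and 12 members had a mean below it in both: Slc1a3, Slc3a1, Slc6a14, Slc6a15, Slc6a21, Slc7a2, Slc7a3, Slc7a12, Slc7a14, Slc7a15, Slc38a4 and Slc38a11. A further 3, Slc1a4, Slc7a9 and Slc7a13, lay below it in 1 fraction. The sizes of their differences are uncertain. All 8 members without overlap were above the control median in both fractions, as were the 3 called.

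The mean level of 8 spike-in controls was 9.06 ± 0.25 in high arrays, against 9.99 ± 0.22 in low arrays (SD, n = 4 per fraction), without overlap. The gap was uneven between the controls, from -2.25 for dap, a poly-A control, to -0.33 for cre, a hybridization control. With this mean level as a covariate limma called 0 members and 0 probe sets in either direction. At an unadjusted p under 0.05 there were 2 members with a positive and 3 with a negative difference. Since the level separated the fractions fully, this fit cannot tell it apart from the fraction, and the absence of calls decides nothing. All 10 cDC1 markers, Xcr1 and Clec9a among them, were above the control median and 0 were called (differences from -0.21 to 0.31, of which 3 had an unadjusted p under 0.05). Of 12 plasmacytoid dendritic cell markers 10 were higher, Siglech by 1.81, with a summed level of 13.8 to 14.2 (log2) in high arrays, against 13.2 to 13.3 in low arrays. All 6 T cell markers measured had negative differences and 4 were called lower (summed level 11.3 to 11.6 high, 11.6 to 12.2 low). The 6 NK cell markers had negative differences (median -0.67), none called (11.0 to 11.9 high, 11.4 to 12.5 low). All 6 neutrophil markers also had negative differences (median -0.81), and 1 was called lower (11.6 to 12.8 high, 12.7 to 13.6 low). At an unadjusted p under 0.05 there were 5 of the NK cell and 4 of the neutrophil markers, against 25.5% of all probe sets. No marker in these 4 lists was below the control median in both fractions. Whether these cells contribute to the transporter signals below was not tested, and in such bulk samples fewer cells of a type and less RNA per cell cannot be told apart.

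Slc38a6, a member of the sodium-coupled neutral amino acid transporter family whose substrates are less well defined than those of its relatives, had the largest difference of the 62. Its log2 signal was 8.77, 9.23, 9.06 and 9.17 in the high arrays, against 9.74, 9.88, 9.67 and 9.72 in the low arrays. Every high array lay below every low array, and high replicate 1 was the lowest. The means were 9.06 ± 0.20 in the high and 9.75 ± 0.09 in the low fraction (SD, n = 4 each), a difference of -0.69 (SE 0.11, 95% interval -0.92 to -0.46, limma adjusted p = 0.00594), or 1.62-fold lower. This size exceeded that of 99.2% of all probe sets. Slc38a6 was called without any 1 of the 8 arrays, with differences from -0.75 to -0.60 and adjusted p from 0.00691 to 0.0243.

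The promoter window of Slc38a6, from 250 bases before to 50 after the transcription start in RefSeq (GRCm38.p6, chr12:73286598-73286897, plus strand), is shown because it is the member with the strongest call. Capitals mark a cAMP response element, TGACGTCA, which is its own reverse complement. This motif was added to the search after the window had been read.
Slc38a6: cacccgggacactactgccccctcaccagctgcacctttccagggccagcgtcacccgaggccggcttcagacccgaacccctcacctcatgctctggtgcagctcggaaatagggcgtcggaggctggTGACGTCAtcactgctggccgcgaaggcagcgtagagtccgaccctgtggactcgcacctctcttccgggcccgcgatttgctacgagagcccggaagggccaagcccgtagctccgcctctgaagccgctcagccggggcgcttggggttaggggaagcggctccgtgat
The motif is in 1 of 66 windows of the 45 members with a window in the RefSeq table, and in 1.79% of all 32851 windows. A match is a description of the letters and not evidence that a factor binds there.

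Of 4 carriers known from the lysosome, grouped after their values had been seen, 1 was called (25%), against 8.25% of all probe sets. Slc36a1, the proton-coupled exporter of small neutral amino acids from lysosomes, was lower in TMRM/MG-high cells. It had log2 signals of 9.06, 9.28, 9.28 and 9.37 in the high arrays, against 9.60, 9.51, 9.83 and 9.54 in the low arrays, so that the fractions did not overlap. The difference was -0.37 (SE 0.10, limma adjusted p = 0.0415), or 1.30-fold lower. The call was lost without any 1 of the 8 arrays (adjusted p from 0.0596 to 0.0965) and with the replicate number as a block (0.0502), while the difference stayed between -0.42 and -0.30 in the omissions.

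Slc36a4, a high-affinity relative that carries proline and tryptophan, had a positive difference that did not pass. Its signals were 9.07, 9.54, 9.38 and 9.48 in the high arrays, against 8.67, 8.88, 9.13 and 9.09 in the low arrays. High replicate 1 lay within the range of the low arrays and the other 3 above it. The difference was 0.42 (SE 0.13, adjusted p = 0.0623) and was not called. The call was made without high replicate 1 (0.52, adjusted p = 0.028) or when low replicate 3 was omitted (0.49, adjusted p = 0.0417), with the replicate number as a block (0.0304), with array weights (0.0365) and under a robust fit with an intensity trend (0.036). The spike-in covariate turned it to -0.30. The remaining Slc36a genes, Slc36a2 (-0.11), next to Slc36a1 in the genome, and Slc36a3 (-0.03), next to Slc36a2, were not called.

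Slc38a9, the lysosomal arginine sensor that signals to the Rag GTPases, had signals of 9.46, 9.38, 9.60 and 9.56 in the high arrays, against 9.40, 9.21, 9.59 and 8.96 in the low arrays. The fractions overlapped, with low replicate 4 the lowest array, and the difference was 0.21 (SE 0.12, 95% interval -0.06 to 0.48, adjusted p = 0.327), or 0.10 without low replicate 4. Slc38a7, which exports glutamine and asparagine from lysosomes, had 8.15, 8.68, 8.75 and 8.75 in the high arrays, against 8.51, 8.52, 8.57 and 8.69 in the low arrays. High replicate 1 was the lowest of the 8 and the means were nearly the same (difference 0.01, 95% interval -0.27 to 0.29).

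The promoter window of Slc36a1 (GRCm38.p6, chr11:55204090-55204389, plus strand) is shown because E-box letters, CACGTG, bound by MYC and by the lysosomal regulators TFEB and TFE3, occur in it on 2 occasions, marked in capitals.
Slc36a1: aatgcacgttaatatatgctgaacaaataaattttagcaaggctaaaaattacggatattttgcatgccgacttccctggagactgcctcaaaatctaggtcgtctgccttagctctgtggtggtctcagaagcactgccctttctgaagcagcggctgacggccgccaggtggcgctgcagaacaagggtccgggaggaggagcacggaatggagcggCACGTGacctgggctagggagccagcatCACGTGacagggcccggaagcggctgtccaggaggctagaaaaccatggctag
The E-box is in 8 of the 66 member windows and in 7.15% of all windows, and is its own reverse complement.

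**Figure D2:**
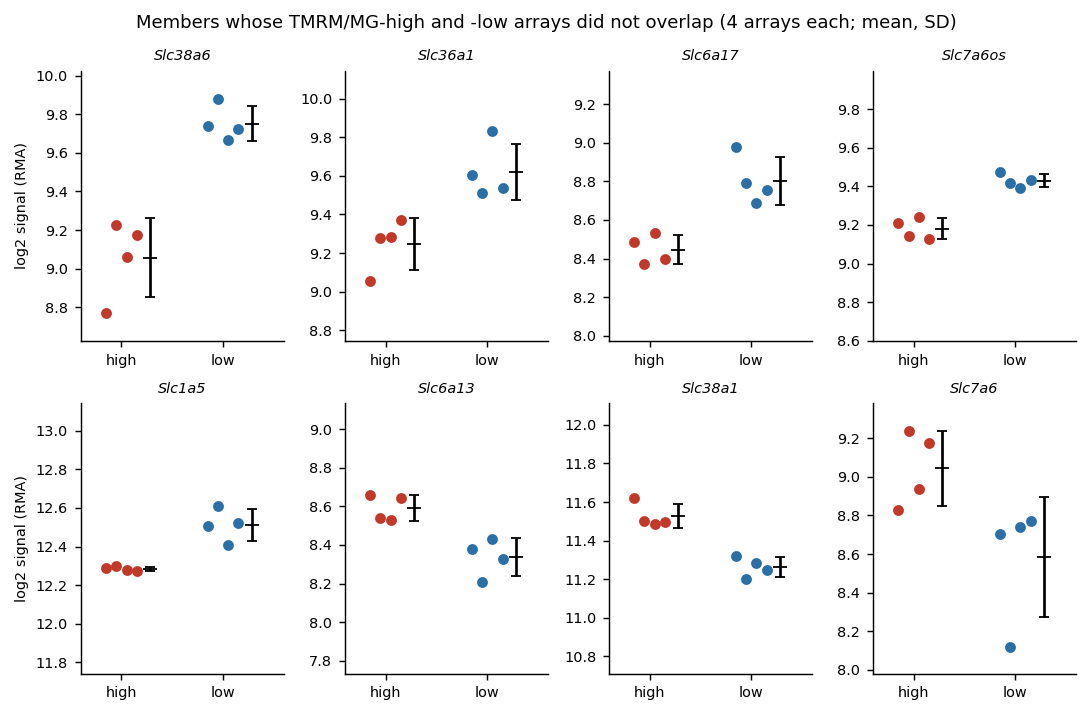
Log2 signal of the 8 members whose arrays did not overlap, for the 4 TMRM/MG-high arrays (red) and the 4 TMRM/MG-low arrays (blue), with mean and SD in black; each panel has its own axis. Slc38a6, Slc36a1, Slc6a17, Slc7a6os and Slc1a5 lie lower in the high arrays and Slc6a13, Slc38a1 and Slc7a6 higher; of these, limma called Slc38a6, Slc36a1 and Slc6a17.

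Among the sodium-coupled glutamine carriers of the plasma membrane none of Slc38a1, Slc1a5 and Slc38a2 was called. Slc38a1 carries glutamine and other neutral amino acids. It had 11.62, 11.50, 11.49 and 11.50 in the high arrays, against 11.32, 11.20, 11.29 and 11.25 in the low arrays. All high arrays were above all low arrays, and the difference of 0.26 (SE 0.08, adjusted p = 0.0566) lay just outside the threshold. With dim probe sets left out it passed (adjusted p = 0.041), as it did with array weights (0.0448) and under a robust fit with an intensity trend (0.00827). It did not pass after quantile normalization (0.19, adjusted p = 0.171), with the replicate block (0.0746) or without any 1 array (0.0649 to 0.131).

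Slc1a5, the exchanger ASCT2 that takes up glutamine against other neutral amino acids, had 12.29, 12.30, 12.28 and 12.27 in the high arrays, against 12.51, 12.61, 12.41 and 12.52 in the low arrays. The high arrays lay close together and below all low arrays. The difference of -0.23 (SE 0.08, adjusted p = 0.0903) was not called. It passed after quantile normalization over the tested probe sets (-0.30, adjusted p = 0.0348) and under a robust fit with an intensity trend (0.00534), and not with the replicate block (0.12) or without any 1 array (0.0619 to 0.201).

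Slc38a2, the carrier that cells raise when amino acids are short, had 11.87, 11.90, 11.83 and 11.96 in the high arrays, against 12.01, 12.03, 11.89 and 12.00 in the low arrays. The fractions overlapped and the difference was -0.09 (95% interval -0.26 to 0.07, adjusted p = 0.481). Slc38a2 lies between Slc38a1 and Slc38a4 in the gene order of RefSeq. Slc1a4, a carrier of alanine, serine and cysteine, had 6.88, 6.30, 6.61 and 6.50 in the high arrays, against 6.69, 6.56, 6.99 and 6.79 in the low arrays, at the level of the negative controls. Its difference was -0.18 (SE 0.13, adjusted p = 0.408), with -0.09 without high replicate 2 and -0.29 without high replicate 1.

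Plasma membrane carriers of neutral amino acids in these families, grouped by known substrate after their values had been seen, had mostly small negative differences. The group leaves out the glycine and proline carriers Slc6a9 (0.10), Slc6a5 (0.08) and Slc6a7 (-0.01). It also leaves out Slc36a2 (-0.11) and Slc38a6 (-0.69), among others placed in other groups, so its counts depend on where this border was drawn. Of all 17 in this group 14 had a negative and 3 a positive difference (Slc38a1, Slc7a5 and Slc7a8), with a median of -0.13. After quantile normalization the split was the same 14 and 3, and with the spike-in covariate it was 8 and 9. With dim probe sets left out, Slc6a15 and Slc38a4 among them, 12 of 15 were negative. By limma 0 of the 17 were called, against 8.25% of all probe sets. An unadjusted p under 0.05 was found for 7, of which 5 were negative and 2 positive, against 25.5% of all probe sets. Over all 22206 probe sets 10639 differences were negative. The most negative of the 17 was Slc38a5, which carries glutamine and histidine (-0.40, SE 0.15, adjusted p = 0.117). It was called as lower with the replicate block (adjusted p = 0.0427). Its highest value, 8.98, was in low replicate 1, and high replicate 1 (8.31) lay within the low range. The epithelial carriers Slc6a20a (-0.28) and Slc6a20b (-0.29), adjacent paralogs that may share probe sequence, were not called. Slc43a1, a facilitative carrier of leucine and other large neutral amino acids, differed by -0.26 (SE 0.11, adjusted p = 0.152). Its relative Slc43a2 had 9.87, 9.73, 9.68 and 9.87 in the high arrays, against 9.98, 9.91, 9.86 and 9.91 in the low arrays, a difference of -0.13 (SE 0.08, adjusted p = 0.355) with overlap at a single low array. The third Slc43a gene, Slc43a3, a purine base transporter, had 8.80, 8.44, 8.56 and 8.78 in the high arrays, against 9.0, 8.61, 8.18 and 8.33 in the low arrays (difference 0.11, SE 0.16).

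The heavy chain Slc3a2 (CD98, also called 4F2hc) carries 6 light chains of the Slc7a family to the cell surface, and none of the 7 genes was called. Slc3a2 itself had 12.57, 12.56, 12.53 and 12.41 in the high arrays, against 12.41, 12.36, 12.48 and 12.32 in the low arrays. Only high replicate 4 fell among the low arrays, and the difference was 0.13 (SE 0.08, 95% interval -0.05 to 0.30, adjusted p = 0.35). Slc7a5 (LAT1), the large neutral amino acid exchanger that brings in leucine, had 9.22, 9.45, 9.48 and 9.53 in the high arrays, against 9.72, 9.28, 8.95 and 9.20 in the low arrays. Low replicate 1 was the highest array and low replicate 3 the lowest, and the difference was 0.14 (SE 0.14, 95% interval -0.18 to 0.45, adjusted p = 0.605). Omitting low replicate 3 gave 0.02 and omitting low replicate 1 gave 0.28, neither called.

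Slc7a6 and Slc7a7 are light chains that exchange cationic for neutral amino acids. Slc7a6 had 8.83, 9.24, 8.94 and 9.17 in the high arrays, against 8.70, 8.12, 8.74 and 8.77 in the low arrays. No array overlapped, low replicate 2 stood well below the rest, and the difference of 0.46 (SE 0.15, adjusted p = 0.0768) was the most positive of the 62 members. Without low replicate 2 it was 0.31 (adjusted p = 0.177), and it passed under a robust fit with an intensity trend (0.0432). Slc7a7 had 9.52, 9.74, 9.73 and 10.01 in the high arrays, against 9.43, 9.46, 9.58 and 9.45 in the low arrays, where high replicate 1 lay below low replicate 3. It differed by 0.27 (SE 0.10, adjusted p = 0.128).

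Slc7a6os, beside Slc7a6 in RefSeq, differed in the other direction from its neighbour. It had 9.21, 9.14, 9.24 and 9.13 in the high arrays, against 9.47, 9.42, 9.39 and 9.44 in the low arrays, with no overlap. The difference of -0.25 (SE 0.07, adjusted p = 0.061) was not called. It was called with quantile normalization (-0.30, adjusted p = 0.0383) and with dim probe sets left out (adjusted p = 0.0441).

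Slc7a8 (LAT2), a light chain for neutral amino acids, had 10.08, 10.34, 10.24 and 10.14 in the high arrays, against 9.85, 9.74, 10.20 and 9.85 in the low arrays. Low replicate 3 lay among the high arrays, and the difference was 0.29 (SE 0.11, adjusted p = 0.127). Without low replicate 3 it was 0.38 (adjusted p = 0.0266). Slc7a10, which carries small neutral amino acids in brain, differed by -0.02.

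Slc7a11 (xCT), the light chain that imports cystine in exchange for glutamate and feeds glutathione synthesis, had 9.23, 9.68, 9.01 and 9.47 in the high arrays, against 10.23, 9.32, 9.71 and 9.58 in the low arrays. The fractions overlapped: high replicate 2 exceeded low replicates 2 and 4, and low replicate 1 was the highest array. The difference was -0.36 (SE 0.18, 95% interval -0.76 to 0.04, adjusted p = 0.246), and without low replicate 1 it was -0.19.

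The promoter window of Slc7a11 (GRCm38.p6, chr3:50443564-50443863, minus strand) is shown because it holds 2 copies of the core of the amino acid response element, TGATGNAA, through which ATF4 raises transport genes when amino acids run short. They are in capitals, the downstream copy in reverse complement.
Slc7a11: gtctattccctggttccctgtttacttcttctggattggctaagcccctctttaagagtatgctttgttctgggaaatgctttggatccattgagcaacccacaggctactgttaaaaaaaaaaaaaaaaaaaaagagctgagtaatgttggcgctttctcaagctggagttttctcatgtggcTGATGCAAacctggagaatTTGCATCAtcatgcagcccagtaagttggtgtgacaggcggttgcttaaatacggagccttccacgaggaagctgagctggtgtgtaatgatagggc
This core, searched on both strands, was in 5 of the 66 member windows, those of Slc1a4, Slc6a21, Slc7a7 and Slc7a11, and in 3.97% of all windows.

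**Figure D3:**
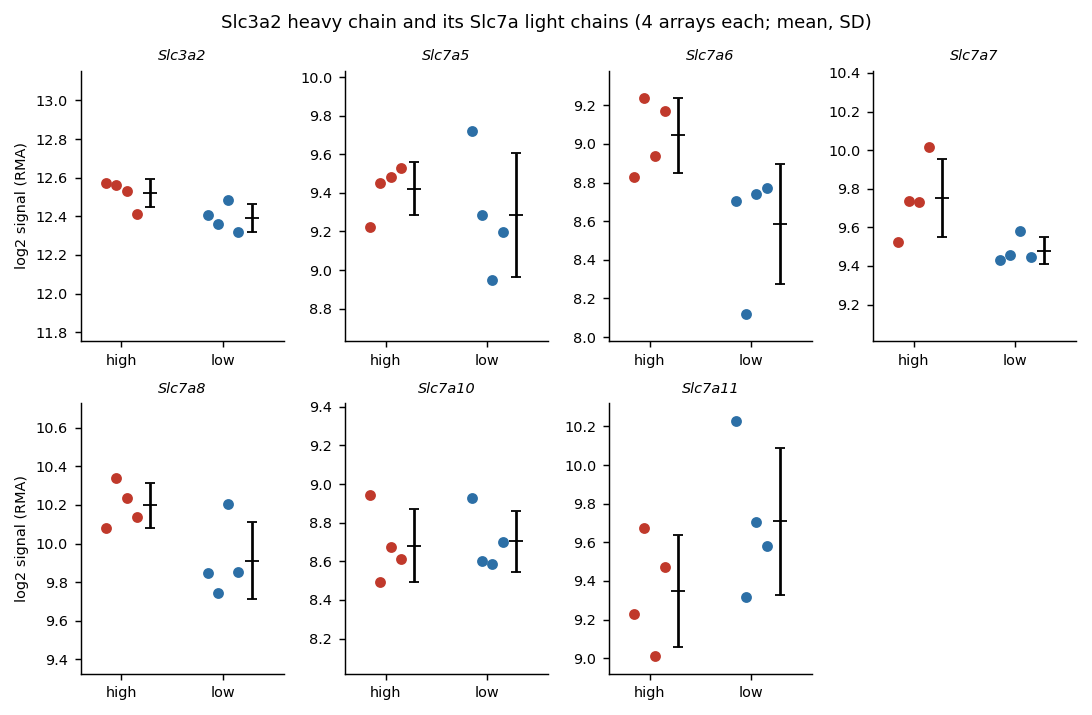
Log2 signal of Slc3a2 and its light chains Slc7a5, Slc7a6, Slc7a7, Slc7a8, Slc7a10 and Slc7a11 in the 4 TMRM/MG-high (red) and 4 TMRM/MG-low (blue) arrays, with mean and SD in black; each panel has its own axis. The fractions overlap in all of them except Slc7a6, and none was called.

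Among cationic amino acid carriers, Slc7a1 (CAT-1), the widely expressed arginine and lysine transporter, had 9.66, 9.91, 9.81 and 9.91 in the high arrays, against 9.53, 9.75, 9.38 and 9.41 in the low arrays. High replicate 1 lay below low replicate 2, and the difference of 0.30 (SE 0.10, adjusted p = 0.0886) was not called. Slc7a2, the arginine carrier linked to nitric oxide production in activated macrophages, was below the negative control median in both fractions, with 5.43 to 5.60 in high arrays, against 5.19 to 5.46 in low arrays. Slc7a3 was also below it. Of the 7 cationic carriers, grouped like the neutral ones after their values had been seen, 6 had a positive difference, with a median of 0.20. Of those 6, Slc6a14, Slc7a2 and Slc7a3 were below the negative control median in both fractions, and with dim probe sets left out 3 of 4 were positive. The count of 6 was the same after quantile normalization and was 4 without high replicate 2 and 4 with the spike-in covariate. By limma 0 of the 7 were called, against 8.25% of all probe sets, and 4 had an unadjusted p under 0.05, against 25.5%. Slc7a2, below the negative control median in both fractions, was 1 of these 4.

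Acidic amino acid carriers of the Slc1a family take up glutamate and aspartate, and none was called. Slc1a2 (GLT-1), the main glutamate carrier of astrocytes, had 7.62, 7.46, 7.70 and 7.77 in the high arrays, against 7.38, 6.76, 7.58 and 7.03 in the low arrays. Low replicate 3 overlapped the high arrays, and the difference was 0.45 (SE 0.15, adjusted p = 0.0932). The call was made with low replicate 3 left out (0.58, adjusted p = 0.0255) and with array weights (0.50, adjusted p = 0.0472). Slc1a1 (0.09), Slc1a6 (-0.04) and Slc1a7 (-0.06) were not called, and Slc1a3 was below the control median.

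Slc6a carriers move neurotransmitters, osmolytes and amino acids with sodium and chloride. Of these 19 genes 1 was called (5.26%), against 8.25% of all probe sets. Slc6a17 (NTT4), a carrier of neutral amino acids into synaptic vesicles of neurons, was lower. It had 8.49, 8.37, 8.53 and 8.40 in the high arrays, against 8.98, 8.79, 8.69 and 8.75 in the low arrays, without overlap. The difference was -0.36 (SE 0.09, limma adjusted p = 0.0309), or 1.28-fold lower. The call held without high replicate 1 or without low replicate 3 and was lost in the other 6 omissions (highest adjusted p = 0.0962).

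Slc6a13 (GAT2), a carrier of GABA and taurine, lay higher in every high array, with 8.66, 8.54, 8.53 and 8.64 in the high arrays, against 8.38, 8.21, 8.43 and 8.33 in the low arrays. It differed by 0.26 (SE 0.08, adjusted p = 0.0782) and was not called, and its genomic neighbour Slc6a12, the betaine and GABA carrier, differed by -0.01. Slc6a6 (TauT), the taurine transporter, had 11.46, 11.59, 11.51 and 11.56 in the high arrays, against 11.61, 11.67, 11.46 and 11.61 in the low arrays, a difference of -0.05 (95% interval -0.23 to 0.12). The creatine transporter Slc6a8 (0.06) and the glycine transporter Slc6a9 (0.10) were not called. The serotonin transporter Slc6a4 differed by 0.36 (SE 0.12, adjusted p = 0.0903; called with the replicate block, adjusted p = 0.0475) and the dopamine transporter Slc6a3 by 0.33 (SE 0.16, adjusted p = 0.237). Both overlapped between fractions.

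By family, the median difference was 0.10 in Slc7a, 0.04 in Slc3a, -0.01 in Slc6a, -0.06 in Slc1a, -0.06 in Slc38a, -0.07 in Slc36a and -0.13 in Slc43a. Of the 16 Slc7a genes 11 had a positive difference, against 4 of 11 in Slc38a and 2 of 7 in Slc1a. With the spike-in covariate, which largely follows the fraction, the medians of Slc7a (-0.02), Slc6a (0.12), Slc1a (0.06) and Slc43a (0.08) had the opposite sign. Among members not below the negative control median in both fractions, 7 of 11 Slc7a genes were positive in the main fit (median 0.03). The Slc3a median was then 0.13, from 1 gene. Positive differences were then found in 4 of 9 Slc38a genes (median -0.04) and 2 of 6 Slc1a genes (median -0.05). Whether families differ from each other was not tested. Slc38a10, whose role is less well defined, differed by 0.20 (SE 0.11) and Slc38a3, a glutamine carrier of liver and brain, by -0.17 (SE 0.09), neither called.

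Genes that act on amino acids beyond these carriers were compared in the same fit. Of 13 amino acid carriers outside the families 1 was called, lower (7.69%, against 8.25% of all probe sets). This was Slc66a1 (PQLC2), which exports cationic amino acids from lysosomes. It had 9.91, 10.20, 10.12 and 9.99 in the high arrays, against 10.68, 10.66, 10.28 and 10.47 in the low arrays, without overlap (-0.47, SE 0.11, adjusted p = 0.0259). The call was lost in 6 of the 8 omissions (highest adjusted p = 0.0697).

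Amino acid sensing at the lysosome joins the Rag GTPases and the Ragulator complex, which bring mTORC1 to the lysosome, with GATOR1, which inhibits them, and GATOR2, which opposes GATOR1. Of 31 genes 5 were higher and 2 lower (22.6% called, against 8.25% of all probe sets), with a median difference of 0.12. None of the 31 was below the negative control median in both fractions. Among all probe sets not below it in both fractions, 10.5% were called. Rragc, a Rag GTPase, had 10.28, 10.32, 10.33 and 10.28 in the high arrays, against 9.70, 9.43, 10.07 and 9.53 in the low arrays (0.62, SE 0.12, adjusted p = 0.0154). Rraga, its partner, was higher by 0.35 (SE 0.09, adjusted p = 0.0338). On leaving out 1 array, Rragc kept its call in 6 of 8 omissions and Rraga in 2 of 8. Rraga was not called after quantile normalization (0.27, adjusted p = 0.0627). The other rises were the Ragulator subunits Lamtor2 (0.29) and Lamtor3 (0.45) and the folliculin partner Fnip1 (0.37), named here because the count is small.

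Both falls were in GATOR subunits. Wdr24 of GATOR2 had 9.77, 9.75, 9.76 and 9.64 in the high arrays, against 10.45, 10.17, 10.47 and 10.25 in the low arrays (-0.61, SE 0.09, adjusted p = 0.00555), and kept its call without any 1 array. Nprl3 of GATOR1 had 9.47, 9.28, 9.13 and 9.37 in the high arrays, against 10.17, 9.91, 9.45 and 9.83 in the low arrays (-0.52, SE 0.14, adjusted p = 0.0393), with high replicate 1 just above low replicate 3. Nprl3 kept its call in 2 of 8 omissions of 1 array. The count of rises depended on the setting: it was 1 after quantile normalization, 3 with the replicate block, 0 without high replicate 2 or without high replicate 3, 1 without high replicate 4 or any 1 of low replicates 1, 2 and 4, 3 without high replicate 1, and 7 without low replicate 3. The count of falls was 1 without any 1 of these arrays except high replicate 1 and low replicate 3, where it was 2.

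**Figure D4:**
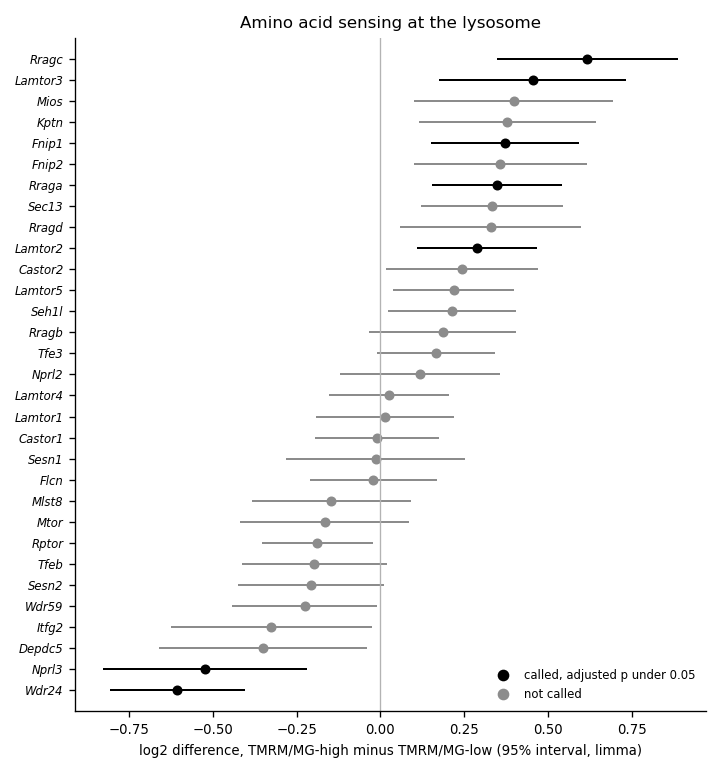
Log2 difference, TMRM/MG-high minus TMRM/MG-low, of the 31 measured genes of amino acid sensing at the lysosome, with 95% intervals from limma (n = 4 arrays each). The 7 called genes are black: Rragc, Lamtor3, Fnip1, Rraga and Lamtor2 above 0 and Nprl3 and Wdr24 below it.

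In the amino acid response the kinase GCN2 senses uncharged tRNA and raises the transcription factor ATF4. Of 21 genes of this response 1 was higher and 1 lower (9.52% called, against 8.25% of all probe sets). Their median difference was -0.0048. Eif2ak4, which encodes GCN2, had 10.38, 10.51, 10.55 and 10.49 in the high arrays, against 11.01, 10.96, 11.08 and 10.77 in the low arrays (-0.47, SE 0.09, adjusted p = 0.0129), and kept its call without any 1 array. Psat1, an enzyme of serine synthesis, had 8.72, 8.70, 8.65 and 8.68 in the high arrays, against 8.24, 7.84, 8.42 and 8.14 in the low arrays (0.53, SE 0.11, adjusted p = 0.0192). Its call was lost without high replicate 2 (adjusted p = 0.0594) or without high replicate 3 (0.0543).

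Of 23 genes of amino acid use 1 was higher and 1 lower (8.7% called, against 8.25% of all probe sets), with a median of 0.05. Bcat2, the mitochondrial branched-chain aminotransferase, had 9.01, 9.31, 9.06 and 9.06 in the high arrays, against 9.77, 9.84, 9.48 and 9.61 in the low arrays (-0.56, SE 0.10, adjusted p = 0.0122), and kept its call without any 1 array. Gclm, a subunit of the enzyme that starts glutathione synthesis from the cysteine that cystine import supplies, had 8.09, 8.67, 8.17 and 8.33 in the high arrays, against 7.40, 7.52, 7.85 and 7.80 in the low arrays (0.67, SE 0.14, adjusted p = 0.0177). Its call was lost in 3 of the 8 omissions (highest adjusted p = 0.052).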

How the data were processed

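The deposited values are log2 signals that the authors made with RMA in Affymetrix Expression Console 1.1, per the submitters' processing notes. RMA removes background and equalises the probe distributions of all arrays, so a change common to most transcripts is not seen and a difference is relative to the other probe sets. Labelling used the Whole Transcript Plus kit, per the labels. Build and detection calls are not given in the sources used here. Precision is limited by the number of arrays. Of 28846 rows, 6640 control probe sets were left out. Fractions were compared with limma 3.58.1 (lmFit, eBayes) under R 4.3.3, two-sided, without a block, with Benjamini-Hochberg adjustment over 22206 probe sets. Members, lists and alternatives were chosen with earlier results of these data known. Values per array are given for members called, members without overlap of the fractions and 18 fixed carriers, and for Slc1a2, chosen after its values were seen. Other members are named with their differences. For each other list, up to 4 called genes of smallest p are named, and the remaining called sensing genes were named after their values were seen. Promoter windows are RefSeq's (GRCm38.p6). Some genes of these lists were not analysed here, and counts are over those measured. Other marker lists had 0 of 6 (B cell), 0 of 7 (red pulp macrophage) and 0 of 2 (erythroid) called, with 0 at an unadjusted p under 0.05, and 1 of 7 (cDC2) called lower. The fit was tested on simulated data. Figures were drawn with matplotlib 3.10.9.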

Additional observations from a re-analysis of the deposited data

Results flagged for a closer look

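In 6 of 124 groups of 4 arrays (62 members in each fraction) the highest or lowest array stood apart from the other 3 by more than Dixon's 95% critical value for 4 samples, about the 1 in 20 that chance gives. In 4 of these the array was high replicate 1. Slc38a1 was 11.62 there, against 11.49 to 11.50 in the other high arrays, and Slc1a1 was 8.08, against 7.84 to 7.86. Slc38a7 was 8.15 there, against 8.68 to 8.75, and Slc38a10 was 10.17, against 10.53 to 10.60. Slc6a15, below the negative control median in both fractions, was 4.95 in high replicate 3, against 4.77 to 4.78. Slc7a6 was 8.12 in low replicate 2, against 8.70 to 8.77 in the other low arrays. Causes were not tested.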

How the results depend on the processing

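Slc38a6 kept its direction in all 14 alternatives and its call in all except the spike-in covariate (-0.93, adjusted p = 1). Over all probe sets 1950 were higher under a robust fit with an intensity trend; leaving out 1 array gave 183 to 1680 higher and 218 to 793 lower. Members called higher numbered 3 with array weights, 1 with dim probe sets left out and 3 under a robust fit with an intensity trend, and 0 to 3 on leaving out 1 array. Members called lower numbered 5 after quantile normalization and 1 to 2 on leaving out 1 array.

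When the spike-in covariate was added, chosen with earlier results known, 0 probe sets, 0 members and 0 genes of the other lists were called, with unadjusted p under 0.05 for 472 probe sets with a positive and 568 with a negative difference. Differences then turned sign for Nprl3 (0.13), Slc36a4 (-0.30), Slc38a7 (-0.71), Slc43a2 (0.056), Slc7a6 (-0.24), Slc7a7 (-0.10) and Slc7a8 (-0.15), and the Slc36a median was -0.43. The covariate largely follows the fraction, and the SE of Eif2ak4 was 0.22 with it, against 0.09 in the main fit. Effects of the spike-in level and of the fraction therefore cannot be told apart here, and causes were not tested. The Slc36a median was -0.14 to -0.031 on leaving out 1 array. Slc38a7 turned to -0.023 after quantile normalization and ran from -0.048 to 0.15 on leaving out 1 array, and Slc43a3 from -0.0026 to 0.27, with 0.88 under the spike-in covariate.

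Carriers outside the families had 2 lower with array weights and 2 under a robust fit with an intensity trend, and 0 to 2 on leaving out 1 array. The amino acid response had 2 higher with array weights and 2 under a robust fit with an intensity trend, and 0 to 2 on leaving out 1 array. Amino acid sensing had 1 higher after quantile normalization and, on leaving out 1 array, 0 to 7 higher and 1 to 2 lower. Amino acid use had 3 higher with array weights and 3 under a robust fit with an intensity trend, and 0 to 4 on leaving out 1 array.

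The replicate number as a block gave 1225 and 650 calls over all probe sets, 2 members higher (Slc36a4 and Slc6a4) and 3 lower, and 3 sensing genes higher. Deviations of same-numbered arrays correlated at 0.02 to 0.27, and not every array correlated best with its own number. Some markers, such as Itgae and Lair1, ranked the replicate numbers alike in both fractions, and others, such as Sirpa, did not. The labels do not say what a number shares, so the main fit has no pairs. These correlations cannot settle whether same-numbered arrays are pairs. Averaging a gene's probe sets was not run, since each member has a single one; alternatives for the other lists were added after seeing the data. The number of arrays and the negative control level limit what could be detected.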
